A study of Mus musculus with 43 samples.

Results

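Actin contractility genes were followed across mouse intestinal organoids and sorted crypt cells: Myl9, Acta2, Tagln, Tagln2, Tpm1, Tpm2, Tpm4, Cnn2, Flna and Actn1. These 10 genes were taken by symbol from the 23951 gene rows of each of 3 bulk RNA-seq tables and from the 54307 gene rows of the single-cell matrices, and all 10 were found in both. The genes were selected on values measured in these libraries, taken here to be their levels and their TGFB1 changes, since the selection is not recorded in more detail. Their changes with TGFB1, and the differences of these changes between conditions, are therefore given as a description, with a standard error (SE) and no p-value, and they support nothing beyond the values themselves.

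Bulk RNA-seq covered primary intestinal organoids from wild-type C57BL/6 mice in 6 groups of 3 libraries. Organoids are crypt-derived epithelial structures grown in culture without the surrounding connective tissue. On day 6 each group was given vehicle or TGFB1 at 2 ng/mL, for 24 h. The non-irradiated groups were collected on day 7 (D7 non-IR), and the irradiated groups, given 4 Gy on day 4, were collected on day 7 (D7 IR) or day 11 (D11 IR). The single-cell libraries covered organoids given 4 Gy on day 4 and collected on day 8, after 6, 15 or 24 h with 1 ng/mL TGFB1, or with vehicle for 24 h, here called 0 h. They also covered live Ki67-RFP+ cells sorted from the proximal small intestine of Mki67tm1.1Cle/J mice, which carry a red fluorescent tag on the proliferation protein Ki67. Of these, 2 libraries were taken 56 h after 12 Gy of whole-body irradiation and 1 came from a non-irradiated littermate control. The labels do not say whether the 3 bulk libraries of a group came from separate mice or cultures, so the spread between them may be technical.

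Epithelial cells hold a cortical network of actin filaments that non-muscle myosin pulls together. Myosin regulatory light chains such as the product of Myl9 switch that pull on when they are phosphorylated. Tropomyosins (Tpm1, Tpm2, Tpm4) lie along the filament, calponins (Cnn2) and transgelins (Tagln, Tagln2) bind its side, filamin A (Flna) and alpha-actinin 1 (Actn1) cross-link filaments, and Acta2 encodes alpha smooth muscle actin. Acta2, Tagln, Myl9 and Tpm2 are classical smooth muscle and myofibroblast genes, and TGFB1 is known to raise several of them in mesenchymal cells. Many such genes carry a CArG box, the element bound by serum response factor (SRF), near their start.

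To show what lies in front of these genes, the 250 bases before the annotated start were read from RefSeq (GRCm38.p6), which held a window for 9 of the 10 genes. Both strands were searched for the CArG box (CC and GG around 6 bases that are A or T), exact or with at most 1 mismatch, for CATTCC or its reverse GGAATG (the core bound by TEAD factors), and for CAGAC or GTCTG (a SMAD element). An exact CArG box stood before 2 of the 9 genes, Myl9 and Cnn2, against 1.47% of all 32851 windows of the same length. With 1 mismatch allowed it stood before 5 of 9 (Myl9, Acta2, Tpm1, Cnn2 and Flna), against 18.6% of all windows. CATTCC or GGAATG stood before 4 of 9 (Acta2, Tagln2, Tpm1 and Flna), against 12.6%, and CAGAC or GTCTG before 2 of 9 (Acta2 and Tagln2), against 42.2%. The windows of 4 genes are printed because they belong to genes that moved far, or in opposite directions, in the results that follow: Myl9 (chr2:156775214-156775463, plus strand), Cnn2 (chr10:79988350-79988599, plus strand), Acta2 (chr19:34255374-34255623, minus strand) and Flna (chrX:74246535-74246784, minus strand). Capitals mark CArG matches and CATTCC or GGAATG, and no marked matches overlap.
Myl9: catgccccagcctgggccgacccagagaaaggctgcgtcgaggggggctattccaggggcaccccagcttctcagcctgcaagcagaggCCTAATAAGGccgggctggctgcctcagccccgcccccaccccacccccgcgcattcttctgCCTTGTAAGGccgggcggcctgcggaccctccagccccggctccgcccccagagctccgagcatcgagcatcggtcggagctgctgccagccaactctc
Cnn2: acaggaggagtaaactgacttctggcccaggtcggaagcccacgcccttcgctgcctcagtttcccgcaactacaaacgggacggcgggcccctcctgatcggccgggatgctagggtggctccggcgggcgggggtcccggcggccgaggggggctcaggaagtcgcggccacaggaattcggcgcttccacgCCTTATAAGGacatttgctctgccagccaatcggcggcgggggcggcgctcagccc
Acta2: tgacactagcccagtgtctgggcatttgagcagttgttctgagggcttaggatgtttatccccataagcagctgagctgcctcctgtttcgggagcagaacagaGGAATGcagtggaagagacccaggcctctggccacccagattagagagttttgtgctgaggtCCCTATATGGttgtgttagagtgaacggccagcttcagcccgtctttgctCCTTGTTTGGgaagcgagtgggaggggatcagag
Flna: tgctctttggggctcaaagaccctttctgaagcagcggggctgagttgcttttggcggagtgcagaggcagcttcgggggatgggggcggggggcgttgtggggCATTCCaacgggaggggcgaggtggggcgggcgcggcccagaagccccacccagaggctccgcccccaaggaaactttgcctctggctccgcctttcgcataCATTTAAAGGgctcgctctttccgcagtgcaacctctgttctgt
Myl9 holds the exact box CCTAATAAGG 161 bases before its start and CCTTGTAAGG, with 1 mismatch, 99 bases before it. Cnn2 holds the exact box CCTTATAAGG 56 bases before its start. Myl9, which was lower with TGFB1, and Cnn2, which was higher, thus both have an exact box. Acta2 holds CCCTATATGG and CCTTGTTTGG, each with 1 mismatch, 84 and 34 bases before its start, beside GGAATG at 146 bases. Flna holds CATTCC at 146 bases and CATTTAAAGG, with 1 mismatch, at 44 bases. A match describes letters in this window and is not a measured binding site.

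Levels of the 10 genes in the bulk libraries spanned several orders of magnitude. The values are FPKM, which are scaled by transcript length and can be set side by side between genes. Over the 18 libraries Tagln2 lay between 453 and 1140 FPKM, Tpm1 between 251 and 680, Tpm4 between 74.6 and 329, Actn1 between 67.6 and 258, Cnn2 between 24.1 and 95.7 and Flna between 11.9 and 81.3. These 6 genes were abundant in every library. Myl9 ranged from 1.08 to 97.8 FPKM, a 90.7-fold span, the widest of the genes above 1 FPKM in every library. The scarce genes were Tpm2 (0.299 to 7.15 FPKM), Acta2 (0.0242 to 4.14) and Tagln (0.167 to 2.94), and Acta2 and Tagln each exceeded 1 FPKM in 6 of the 18 libraries.

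**Figure D1:**
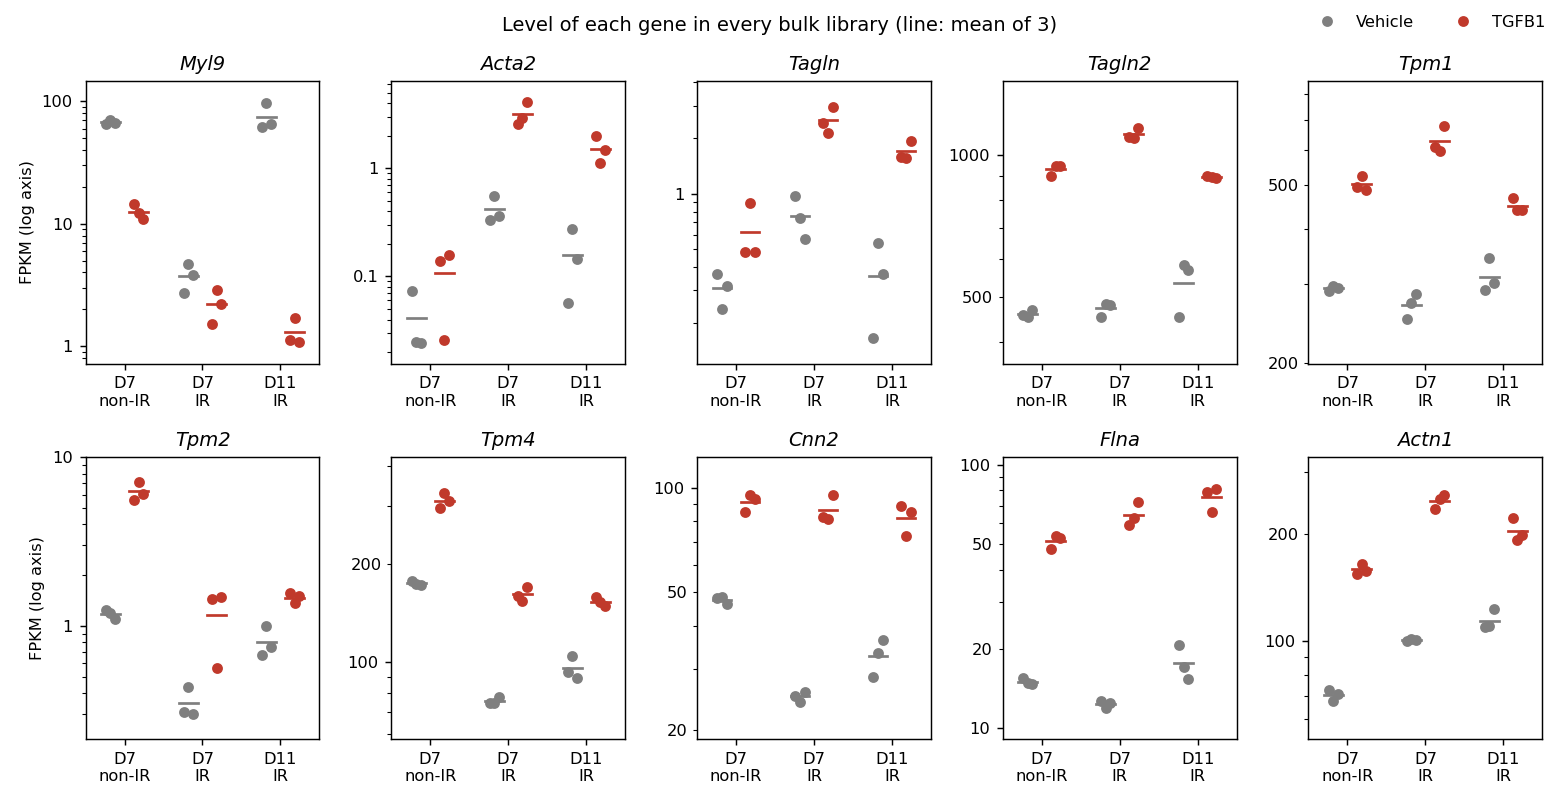
FPKM of each of the 10 genes (log axis) in every bulk library, with vehicle in grey, TGFB1 in red and a line at the mean of 3 libraries. Myl9 is the gene whose red lines lie under the grey ones, with overlapping points at D7 IR, going from 62.1 to 97.8 FPKM with vehicle to 1.08 to 1.68 with TGFB1 at D11 IR, while the other panels have their red points above the grey ones, except for overlapping Acta2 points at D7 non-IR.

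With TGFB1, 9 of the 10 genes were higher and Myl9 was lower. A gene entered the fit of a condition if its mean was at least 1 FPKM, and it was called at an adjusted p under 0.05 (limma on log2(FPKM + 1), Benjamini-Hochberg over all genes fitted). At D7 non-IR 8 of the 10 genes passed that filter, of which 7 were called higher and 1 lower, against 33.3% and 34.9% of the 11330 genes fitted. At D7 IR 9 passed, with 8 higher and 1 lower, against 35.8% and 39.7% of 11258 genes. At D11 IR 9 passed, again with 8 higher and 1 lower, against 32.3% and 31.6% of 11479 genes. The median log2 change of the genes that passed was 0.97, 1.22 and 0.75 in that order, and that of all genes fitted was −0.02, −0.03 and 0.01. A gene that passed the filter only through its TGFB1 libraries had to be higher there, which concerns Acta2 and Tagln at D7 IR and Tagln and Tpm2 at D11 IR.

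Myl9, a regulatory light chain of myosin, moved against the rest. At D7 non-IR its vehicle libraries held 65.9, 71.0 and 66.5 FPKM and its TGFB1 libraries 14.4, 12.3 and 11.0, so that the groups lay far apart. The log2 change was −2.35 (SE 0.081, n = 3 against 3), a 5.39-fold lower mean. At D7 IR the vehicle libraries were already low, at 2.71, 4.69 and 3.84 FPKM, and the TGFB1 libraries held 1.53, 2.88 and 2.21. There the groups overlapped, with a log2 change of −0.57 (SE 0.19) whose call was lost when any of 4 of the 6 libraries was left out (TGFB1 replicate 1 or 3 or vehicle replicate 2 or 3). At D11 IR the vehicle libraries held 62.1, 97.8 and 65.7 FPKM and the TGFB1 libraries 1.13, 1.68 and 1.08. The TGFB1 mean was 58.0-fold lower, a log2 change of −5.03 (SE 0.18).

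The vehicle level of Myl9 itself changed between the tables, which the authors normalized separately and which are compared here without a test. The mean was 67.8 ± 2.79 FPKM (SD, n = 3) at D7 non-IR, 3.75 ± 0.99 at D7 IR and 75.2 ± 19.6 at D11 IR. It was thus 18.1-fold lower at D7 IR than at D7 non-IR and 20.1-fold higher at D11 IR than at D7 IR. The D7 non-IR and D11 IR vehicle libraries overlapped in level, and the D7 IR ones lay far under both. With TGFB1 the order was another one: 12.6 ± 1.75 FPKM at D7 non-IR, 2.205 ± 0.674 at D7 IR and 1.30 ± 0.34 at D11 IR. In these bulk samples fewer cells with Myl9 RNA and less Myl9 RNA per cell cannot be told apart.

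Acta2, the smooth muscle actin, was very low without irradiation. Its D7 non-IR libraries held 0.074, 0.025 and 0.024 FPKM with vehicle and 0.140, 0.026 and 0.159 with TGFB1, and the groups overlapped. At D7 IR vehicle libraries held 0.332, 0.558 and 0.366 FPKM and TGFB1 libraries 2.56, 2.95 and 4.14. This was a log2 change of 1.56 (SE 0.13) of FPKM + 1, a scale that understates changes of scarce genes. At D11 IR the values were 0.0565, 0.274 and 0.146 FPKM with vehicle and 2.00, 1.12 and 1.46 with TGFB1. The groups did not overlap there, but the mean lay under the filter and no change was fitted. The protein of Acta2 is nearly identical to those of Acta1, Actc1 and Actg2. How any reads common to these actin genes were assigned is not stated, so the level of Acta2 is uncertain.

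Tagln, transgelin, held 0.370, 0.239 and 0.315 FPKM with vehicle and 0.484, 0.892 and 0.486 with TGFB1 at D7 non-IR, under the filter. At D7 IR it held 0.970, 0.742 and 0.571 FPKM with vehicle and 2.42, 2.14 and 2.94 with TGFB1. At D11 IR the values were 0.167, 0.540 and 0.369 with vehicle and 1.59, 1.57 and 1.93 with TGFB1. The groups did not overlap in any condition, and the log2 changes were 0.99 at D7 IR (SE 0.12) and 1.00 at D11 IR (SE 0.13). Tagln overlaps Pcsk7, whose mean went from 5.00 to 7.89, from 14.6 to 15.8 and from 6.66 to 12.0 FPKM with TGFB1 in the same conditions. Strand use is not stated, so reads of this pair cannot be told apart.

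The 3 tropomyosins were higher with TGFB1 but differed in level and in their pattern over conditions. Tpm2, the tropomyosin typical of muscle, held 1.25, 1.19 and 1.10 FPKM with vehicle and 5.59, 7.15 and 6.09 with TGFB1 at D7 non-IR, a log2 change of 1.73 (SE 0.086). At D7 IR it held 0.311, 0.437 and 0.299 FPKM with vehicle and 1.44, 0.565 and 1.49 with TGFB1, under the filter. At D11 IR it held 0.669, 0.995 and 0.745 FPKM and then 1.561, 1.359 and 1.495, a log2 change of 0.46 (SE 0.11). Tpm2 was thus highest without irradiation, the opposite of Acta2 and Tagln. Tpm1 was the most abundant tropomyosin, with means of 294, 270 and 312 FPKM with vehicle at D7 non-IR, D7 IR and D11 IR and 503, 630 and 450 with TGFB1. Tpm4, a non-muscle tropomyosin, had means of 174, 75.8 and 95.4 FPKM with vehicle and 312, 161 and 152 with TGFB1. Vehicle and TGFB1 libraries did not overlap for Tpm1, Tpm2 or Tpm4 in any condition.

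The filament binders and cross-linkers had the largest changes among the abundant genes. Flna held 15.5, 14.8 and 14.6 FPKM with vehicle and 47.9, 53.5 and 52.7 with TGFB1 at D7 non-IR. At D7 IR the values were 12.7, 11.9 and 12.4 and then 58.8, 63.1 and 72.3, and at D11 IR 20.6, 17.0 and 15.3 and then 78.5, 65.9 and 81.3. Its TGFB1 mean was 3.43-fold, 5.25-fold and 4.26-fold the vehicle mean in that order. Cnn2, calponin 2, held 48.1, 48.5 and 46.1 FPKM with vehicle and 85.0, 95.7 and 92.6 with TGFB1 at D7 non-IR. At D7 IR it held 25.1, 24.1 and 25.8 and then 82.1, 81.4 and 95.7, and at D11 IR 28.4, 33.5 and 36.4 and then 88.4, 72.6 and 85.3. The TGFB1 libraries of Cnn2 lay between 72.6 and 95.7 FPKM in all 3 conditions, while its vehicle libraries were lower in both irradiated groups than at D7 non-IR. Actn1 had means of 70.3, 101 and 114 FPKM with vehicle and 159, 249 and 205 with TGFB1. Tagln2, the transgelin of non-muscle cells and the most abundant of the 10 genes, had means of 459, 472 and 536 FPKM with vehicle and 933, 1105 and 897 with TGFB1.

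Across all 10 genes, TGFB1 and vehicle libraries did not overlap for 9 genes at D7 non-IR (8 higher, 1 lower), for 9 at D7 IR (all higher) and for 10 at D11 IR (9 higher, 1 lower). Among all genes fitted, 35.3%, 37.1% and 35.8% were higher without overlap in that order, and 36.8%, 41.1% and 34.3% lower. These shares cover genes that passed the filter, as 8, 9 and 9 of the 10 genes did. Outside it were Acta2 (overlapping) and Tagln (higher) at D7 non-IR, Tpm2 (higher) at D7 IR and Acta2 (higher) at D11 IR. Between vehicle groups, 3 of the 10 genes were higher and 6 lower without overlap at D7 IR than at D7 non-IR, where 40.7% and 44.3% of genes were. At D11 IR against D7 IR, 7 were higher and 2 lower, where 33.7% and 33.1% of genes were. Here too the shares cover genes that passed the filter, as 7 of the 10 did in both comparisons. Acta2 and Tagln, higher at D7 IR than at D7 non-IR and lower at D11 IR than at D7 IR, did not pass it. Neither did Tpm2, which was lower and then higher.

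**Figure D2:**
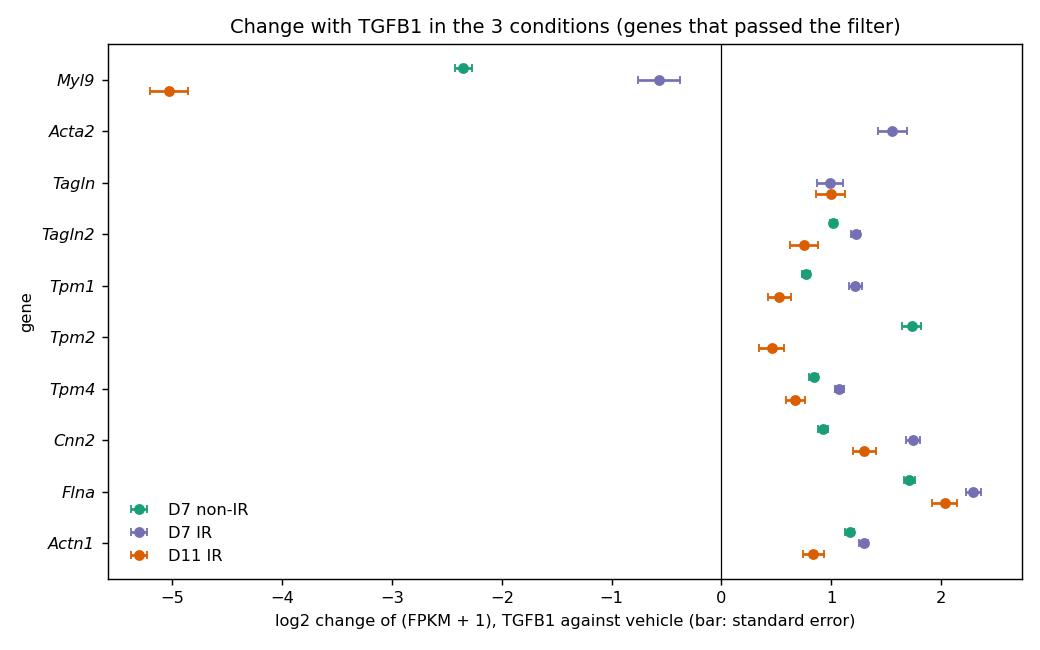
log2 change of FPKM + 1 with TGFB1 for each gene in the 3 conditions, with bars for 1 standard error; a gene under the filter in a condition has no point. Myl9 lies at −2.35, −0.57 and −5.03, and every other point lies between 0.46 and 2.30.

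The TGFB1 changes of irradiated and non-irradiated organoids were set against each other as an interaction term over the 12 D7 libraries. A factor common to a table cancels there for levels far above 1 FPKM. It does not cancel in full for Tagln, Tpm2 and, at D7 IR, Myl9, because 1 was added to their low FPKM. The interaction term is a difference of the changes described above, in the same libraries, so its values and calls are a description too. Of the 9 genes that passed the filter, 7 were called with a more positive change in irradiated organoids, 1 with a more negative one and 1 was not called, against 25.3% and 27.8% of all 11411 genes. Of these calls 2 follow from the filter. Tagln passed it only through D7 IR with TGFB1 and Tpm2 only through D7 non-IR with TGFB1, so their differences had to be positive and negative. The log2 difference was 0.82 for Cnn2 (SE 0.083), 0.59 for Flna (SE 0.090) and 0.45 for Tpm1 (SE 0.073). It was small for Tpm4 (0.23, SE 0.060) and Tagln2 (0.20, SE 0.049), and the call of Tagln2 was lost when all 18 libraries shared a fit. For Myl9 it was 1.78 (SE 0.25), where a positive value stands for the smaller difference from a low vehicle level. Tagln had 0.69 (SE 0.17) and Tpm2 −1.08 (SE 0.20), and both calls were lost at a pseudocount of 0.1 (0.82 and −0.91). Actn1 was not called (0.13, SE 0.055), but was with median-ratio scaling and without any 1 of 3 libraries (D7 IR TGFB1 replicate 1, D7 non-IR TGFB1 replicate 2 or D7 non-IR vehicle replicate 2).

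Between D7 and D11 of the irradiated organoids the same kind of difference is a description for the same reason. Here 6 of 9 genes were called with a more negative TGFB1 change on D11, 0 with a more positive one and 3 were not called, against 33.0% and 31.5% of 11456 genes. These organoids had TGFB1 for the same 24 h on day 6, so the D11 libraries were taken days after it ended. The log2 difference was −0.69 for Tpm1 (SE 0.12), −0.46 for Actn1 (SE 0.097), −0.40 for Tpm4 (SE 0.092), −0.47 for Tagln2 (SE 0.13), −0.44 for Cnn2 (SE 0.13) and −4.47 for Myl9 (SE 0.30). Most of these calls depended on the scaling. With quantile normalization Tagln2 (−0.01), Tpm4 (−0.11), Actn1 (−0.17) and Cnn2 (−0.28) were no longer called, and 2 of the 6 calls were left. Cnn2 was also lost with no filter on low values. Flna (−0.26, SE 0.15), Acta2 (−0.44, SE 0.21) and Tagln (0.005, SE 0.18) were not called. Flna was called without D11 IR vehicle replicate 3, and Acta2 without D11 IR TGFB1 replicate 1 or D7 IR TGFB1 replicate 1.

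Over the 18 bulk libraries the 6 abundant genes other than Myl9 followed each other. Their 15 pairs had Pearson r of log2(FPKM + 1) between 0.30 and 0.98, with a median of 0.89. Myl9 had r between −0.73 and 0.01 with these 6 genes. Acta2 and Tagln had r = 0.95, Tpm2 and Tpm4 r = 0.91, and Myl9 and Tagln r = −0.83. The libraries share treatment, table and scaling, so these values describe the pattern only.

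Among the 11473 genes whose mean over the libraries reached 1 FPKM, those most like each gene over the 18 libraries were named by r. For Myl9 they were Hsf4 (r = 0.974), Xylt2 (0.973) and Fgd1 (0.971). For Flna they were Sh3pxd2b (0.996) and Pvrl4 (0.984), for Cnn2 Anxa3 (0.979), Epha2 (0.976) and Phldb2 (0.975), and for Actn1 Fam129b (0.991), Gpr56 (0.991) and Bcl2l1 (0.988). For Tpm1 they were Bok (0.992), Lpcat4 (0.986) and Trim16 (0.984), for Tpm4 Chp1 (0.992), Itgb1 (0.984) and Tmc7 (0.982), and for Tpm2 Golm1 (0.959), Arntl2 (0.958) and Cd81 (0.958). For Tagln2 they were Mdfi (0.989), Runx1 (0.986) and Ctsd (0.986), and for Tagln Pdcd6ip (0.962), Itga3 (0.960) and Cdkn1c (0.957). Acta2 had a mean under 1 FPKM and was left out.

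The rest of the actomyosin machinery was read from 36 other genes. At D7 non-IR 23 of the 27 that passed the filter were higher with TGFB1, 1 was lower and 3 were not called, beside 33.3% higher and 34.9% lower among all genes fitted. At D7 IR 26 of 29 were higher and 1 lower (35.8% and 39.7% of all genes), and at D11 IR 15 of 29 were higher and 3 lower (32.3% and 31.6%). By role, 8 of 8, 9 of 10 and 8 of 10 filament binding and adhesion genes were higher in the 3 conditions in that order, 4 of 5, 5 of 5 and 2 of 5 myosin chains, and 7 of 8, 8 of 8 and 3 of 8 regulators. The D11 IR counts of myosin chains and regulators are near the 32.3% of all genes called higher and say nothing particular of these roles. Among the filament binding and adhesion genes, Flnc at D7 IR and Cald1 and Flnc at D11 IR passed the filter only through their TGFB1 libraries. They therefore had to be higher there. The median log2 change was 0.36, 0.54 and 0.24, beside −0.02, −0.03 and 0.01 for all genes fitted.

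Rhob, a small GTPase upstream of contraction, had the largest rise at D7, from 33.6 to 241 FPKM without irradiation (log2 change 2.81) and from 17.2 to 271 with it (3.90), and went from 24.8 to 53.0 at D11 IR (1.05). Actb, cytoplasmic beta actin, rose from 2016 to 4104 FPKM at D7 non-IR. Cald1, caldesmon, rose from 1.01 to 7.28 FPKM at D7 IR and from 0.495 to 10.3 at D11 IR, and Flnc, filamin C, from 0.364 to 3.93 at D11 IR. Falls were few. Acta1, skeletal muscle actin, fell from 51.7 to 21.9 FPKM at D7 non-IR and from 177 to 38.4 at D11 IR, with the same uncertainty over reads shared between actins. Mylk, the kinase that phosphorylates myosin light chains, fell from 9.62 to 3.65 FPKM at D11 IR, as did Myh14, a non-muscle myosin heavy chain, from 97.5 to 77.7. At D7 IR Cnn3, calponin 3, was the 1 gene that fell, from 85.9 to 72.1 FPKM.

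Other regulatory light chains are given beside Myl9. Myl12a had means of 129, 81.9 and 86.4 FPKM with vehicle and 220, 147 and 127 with TGFB1 in the 3 conditions. Myl12b had 456, 442 and 489 with vehicle and 641, 716 and 454 with TGFB1, and was not called at D11 IR. Myl9 was thus the scarcest of these 3 light chains with TGFB1 in each condition. Mylk went from 7.54 to 11.1 FPKM at D7 non-IR and from 13.7 to 25.7 at D7 IR, and down at D11 IR. Myocd, the SRF partner of smooth muscle, was listed at 0 in all groups.

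Since Acta2, Tagln, Tpm2 and Myl9 are also mesenchymal genes, markers of such cells were read in the same libraries. Of 19 mesenchymal genes, 18 were under 1 FPKM in all 18 bulk libraries. Vim was the exception, with up to 6.57 FPKM. The 6 smooth muscle genes (Des, Myh11, Actg2, Cnn1, Lmod1 and Synpo2) reached at most 0.116 FPKM (Cnn1), the 6 fibroblast genes at most 0.576 (Col1a1) and the 3 pericyte genes at most 0.580 (Rgs5). None of the 19 was at 0 in every library. The 8 epithelial genes together reached 5309 to 15488 FPKM.

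**Figure D3:**
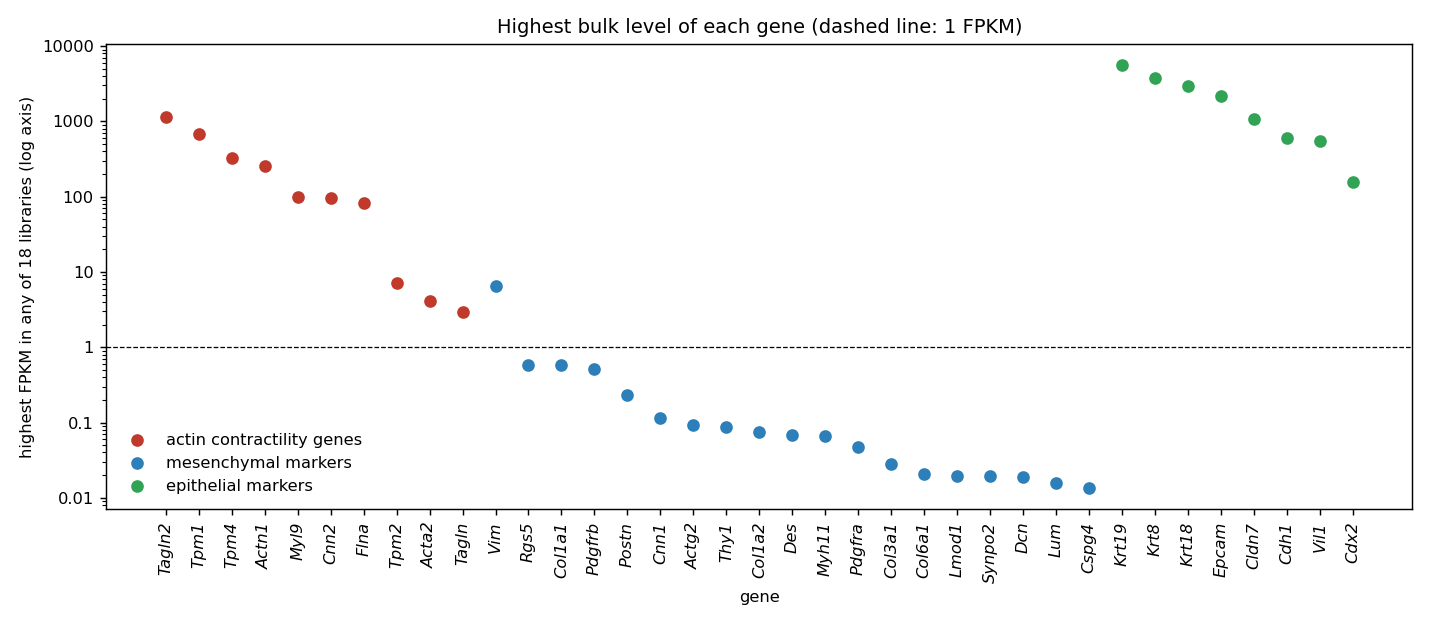
Highest FPKM of each gene in any of the 18 bulk libraries (log axis) for the 10 actin contractility genes, 19 mesenchymal markers and 8 epithelial markers, with a dashed line at 1 FPKM. Among the mesenchymal markers Vim alone lies above the line, at 6.57 FPKM, while Acta2 and Tagln reach 4.14 and 2.94.

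The summed level of the mesenchymal list moved with some groups. With vehicle and TGFB1 it ranged from 5.04 to 5.69 and from 5.26 to 5.83 FPKM at D7 non-IR, from 4.50 to 5.37 and from 4.83 to 7.57 at D7 IR, and from 5.43 to 7.28 and from 1.76 to 2.97 at D11 IR. Without Vim the sum lay between 0.394 and 1.27 FPKM over all libraries. The sum of the fibroblast genes was higher with TGFB1 at D7, from 0.060 to 0.095 against 0.170 to 0.427 FPKM without irradiation and from 0.017 to 0.042 against 0.245 to 0.623 with it. Most of that was Col1a1, with means of 0.0358 and 0.282 FPKM without irradiation and 0.00498 and 0.397 with it, while Col3a1 went from 0.0184 to 0.0077 without irradiation and was listed at 0 with it, and Dcn and Lum were listed at 0 in all D7 libraries with TGFB1. At D11 IR the sum was 0.019 to 0.037 with vehicle and 0.032 to 0.092 with TGFB1. The smooth muscle genes summed to 0.025 to 0.220 FPKM over all libraries, under the 2.56 to 4.14 FPKM of Acta2 at D7 IR with TGFB1. The ranges overlapped at D7 non-IR and at D11 IR with vehicle. At D7 non-IR the sum was 0.041 to 0.116 FPKM with vehicle and 0.062 to 0.087 with TGFB1, and Acta2 0.024 to 0.074 and 0.026 to 0.159. At D11 IR with vehicle the sum was 0.025 to 0.163 and Acta2 0.057 to 0.274. Acta2 lay above the sum at D7 IR with vehicle and at D11 IR with TGFB1. The part of these traces in the changes of Acta2 and Tagln was not tested in bulk.

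The single-cell libraries give the same genes per cell. After filters on cells the organoid libraries held 2932, 4283, 2890 and 2218 cells at 0, 6, 15 and 24 h, and the crypt libraries 1846 cells without irradiation and 719 and 699 after it. Totals per library were 12344800 to 32430900 UMIs, and at most 1 cell barcode was shared by any pair of libraries. Values are CPM of the UMIs summed over a library. With 1 library per time, and 1 against 2 for the crypts, there is no test, and intervals (95%, exact Poisson) cover counting error only.

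In organoids the 6 abundant genes were higher after 24 h of TGFB1 than at 0 h. Flna, the cross-linker, had 14.7, 14.1, 31.6 and 66.8 CPM at 0, 6, 15 and 24 h. Its 24 h level was 4.54 times that at 0 h (interval 4.08 to 5.07), and its 6 h level 0.959 times (0.836 to 1.10). Cnn2 had 13.0, 9.74, 24.4 and 31.1 CPM, with a dip at 6 h (ratio to 0 h 0.752, interval 0.644 to 0.878) and 2.40 times the 0 h level at 24 h (2.12 to 2.72). Tagln2 was early, with 213, 356, 412 and 475 CPM. It stood at 1.67 times its 0 h level after 6 h (1.62 to 1.72) and at 2.23 times after 24 h (2.16 to 2.29). Actn1 had 134, 154, 183 and 252 CPM, Tpm4 73.8, 84.1, 105 and 134, and Tpm1 286, 311, 384 and 453. At 24 h they stood at 1.88, 1.82 and 1.58 times their 0 h levels.

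At 6 h 1 of the 6 genes, Tagln2, lay at least 1.5-fold above 0 h, where 6.46% of the genes with at least 1 CPM did. At 15 h it was 3 of 6 against 11.1%, and at 24 h 6 of 6 against 17.7%. Between successive times, Cnn2 and Flna were past 1.5-fold from 6 to 15 h (2 of 6, against 6.29%), and Flna again from 15 to 24 h (1 of 6, against 8.41%). None of the 6 was 1.5-fold lower in these comparisons, where 3.03% (6 h), 5.92% (15 h) and 8.27% (24 h) of genes were against 0 h, 5.44% from 6 to 15 h and 3.78% from 15 to 24 h.

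Myl9 was scarce in all 4 organoid libraries, with 25, 21, 16 and 32 UMIs at 0, 6, 15 and 24 h. Its 0.914, 0.648, 0.608 and 1.04 CPM had overlapping intervals, and the ratio of 24 h to 0 h was 1.14 (0.656 to 2.01). These day 8 organoids had received the same radiation dose as the bulk groups D7 IR, where Myl9 was low with vehicle, and D11 IR, where it was high. The TGFB1 concentration and the day of collection differ between these experiments. Acta2 had 0.5, 4, 11 and 17 UMIs and Tagln 1, 2, 4 and 11, both with more at later times. At 15 h 7 of the 11 Acta2 UMIs were in 1 cell, and at 24 h 6 of 17 were. Tpm2 had 9, 14, 21 and 7 UMIs.

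In crypt cells the abundant genes were higher in both irradiated libraries than in the non-irradiated one. Cnn2 had 1.81 CPM without irradiation and 12.6 and 12.8 after it, 6.96 and 7.10 times as much. Flna had 2.87 CPM and then 14.0 and 21.5 (4.87 and 7.50 times), with intervals of 12.1 to 16.1 and 19.0 to 24.3 that did not overlap between the irradiated libraries. Tpm2 had 1.01 CPM and then 4.81 and 5.43 (4.76 and 5.38 times), from 26, 66 and 67 UMIs. Tpm4, Actn1 and Tagln2 stood at 2.06 and 2.00, 2.01 and 2.11, and 1.69 and 1.75 times, and Tpm1 at 1.21 and 1.24 times. Of 7 genes with at least 1 CPM, 6 were at least 1.5-fold higher in each irradiated library, where 24.1% and 25.0% of genes were, and none was lower, where 16.3% and 14.2% were.

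Myl9 had 8 UMIs in the non-irradiated crypt library and 13 and 5 in the irradiated ones. Acta2 had 0 UMIs without irradiation, which allows up to 0.116 CPM (3 UMIs), and 1 UMI in each irradiated library. Tagln had 3, 0 and 2 UMIs. With so few UMIs these 3 genes allow no comparison between the crypt libraries.

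**Figure D4:**
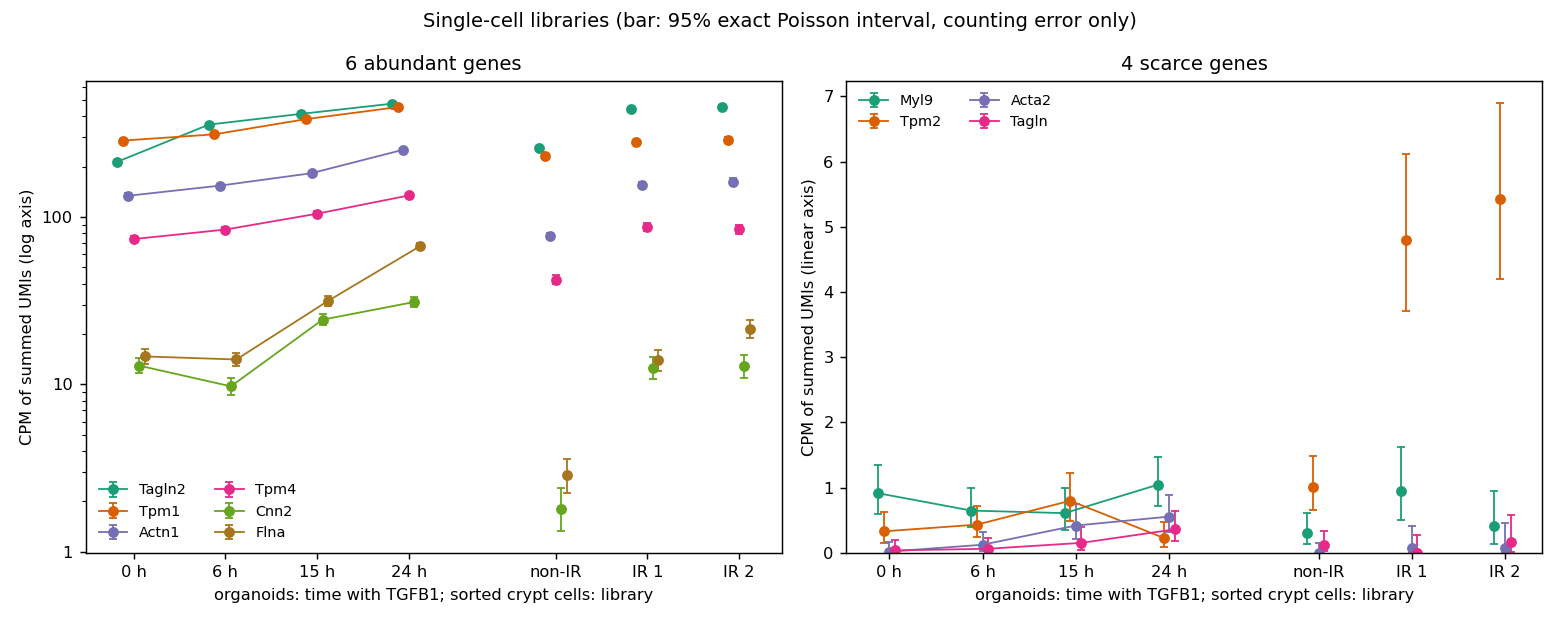
CPM of summed UMIs in each single-cell library, with 95% exact Poisson intervals: on a log axis for the 6 abundant genes and on a linear axis for the 4 scarce ones. Flna goes from 14.7 to 66.8 CPM between 0 and 24 h, Tagln2 is higher from 6 h on, and Tpm2 stands at 4.81 and 5.43 CPM in the irradiated crypt libraries.

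The cells that carried Acta2 or Tagln could be checked one by one. In the organoid libraries 29 cells had a UMI of either gene (a value of at least 0.5), and each had UMIs of 6 to 8 of the 8 epithelial genes and at least 26 epithelial UMIs. Over all cells of each of these libraries the median was 7 or 8 epithelial genes. Of the 29 cells, 1 had a UMI of any of the 19 mesenchymal genes. At 0, 6, 15 and 24 h, 48 of 2932, 60 of 4283, 53 of 2890 and 105 of 2218 of all cells did. With 29 cells, neither value sets them apart from the rest. A single cell, at 24 h, had both genes, with 6 Acta2 and 5 Tagln UMIs. Cells with UMIs of 2 or more mesenchymal genes numbered 1, 0, 0 and 1 in the organoid libraries and 2 in each crypt library, and no cell had 3. Leaving them out left the number of genes past 1.5-fold as it was in each comparison. So few cells could hardly move that number, and Acta2, Tagln and Myl9 were too scarce to enter it. It therefore does not bear on mesenchymal traces in these 3 genes.

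The summed mesenchymal list had 1.839, 1.984, 2.199 and 4.709 CPM at 0, 6, 15 and 24 h, and 4.15, 6.69 and 6.85 CPM in the crypt libraries. It was thus highest at 24 h among the organoid libraries, and higher in both irradiated crypt libraries than in the other one. In the crypts this was Rgs5, with 0.0582 CPM without irradiation and 3.82 and 3.00 after it. The other members went both ways. Col1a2 was lower, with 2.25 CPM and then 1.15 and 1.55, as were Pdgfrb (0.427 and then 0.146 and 0) and the 6 fibroblast genes together (2.49 and then 1.46 and 2.19). Vim was higher, with 0.660 CPM and then 0.728 and 0.891, as were Col1a1 (0.194 and then 0.218 and 0.446) and Thy1 (0.194 and then 0.255 and 0.243). Postn, Pdgfra and Myh11 were also higher, from fewer UMIs. In organoids Col1a2 went from 21.6 to 80.1 UMIs and Vim from 5 to 25 between 0 and 24 h, while Pdgfrb went from 15 to 9 and Col3a1, Col6a1 and Lum had 0 UMIs at both times. Of the 6 smooth muscle genes, 5, 3, 4 and 1 had 0 UMIs at 0, 6, 15 and 24 h, and Lmod1 had 0 UMIs in all 7 libraries. These 6 genes summed to 0.037, 0.154, 0.076 and 0.327 CPM in organoids, and to 0.194, 0.133 and 0.162 CPM in the crypt libraries. The epithelial list had 6489, 8285, 10502 and 11616 CPM in organoids and 7287, 7733 and 8674 CPM in crypts. The part of cells with 1 mesenchymal UMI and of free RNA in these values was not tested.

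Cells were clustered without the 10 genes to see where their RNA lay. In organoids 1 cluster of 479 cells, number 8, was led by Anxa1, Anxa8, Pyy, Cwh43, Ly6d and Ly6a. Anxa1, Anxa8 and Ly6a belong to a list of 6 genes of Clu-positive regenerative cells, the fetal-like state known from injured epithelium. It made up 0.205, 0.911, 4.81 and 13.3% of the cells at 0, 6, 15 and 24 h. At 24 h it held 21.0% of all UMIs of the library but 88.2% of the Acta2 UMIs, 59.2% of Flna, 57.1% of Cnn2 and 49.5% of Actn1. For Tpm4 the share was 43.5%, for Tagln2 39.8%, for Tpm1 36.5% and for Tagln 45.5%. The shares of Acta2 and Tagln rest on few UMIs, 15 of 17 and 5 of 11. Of these, 6 Acta2 UMIs and all 5 Tagln UMIs were in 1 cell. At 15 h cluster 8 held 3 of 11 Acta2 UMIs and cluster 6 held 7. Myl9, with 21.9%, was close to the share of all UMIs. The cluster was made from the same cells, so these shares are a description.

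Among the clusters with at least 50 cells at 24 h, number 8 had the highest level of each of the 6 abundant genes. Flna had 189 CPM there and 6.66 to 98.3 in the others, Cnn2 84.8 and 2.22 to 41.2, and Actn1 596 and 26.1 to 425. Tagln2 had 901 CPM and 159 to 578, Tpm1 788 and 277 to 625, and Tpm4 279 and 48.5 to 182. Within the cluster Flna had 115, 167 and 189 CPM at 6, 15 and 24 h, from 39, 139 and 295 cells. Myl9 was distributed otherwise. Of its 32 UMIs at 24 h, 15 were in cluster 6, led by Cym, Fstl1, Nkd1 and Gkn3, which held 13.4% of all UMIs. Another 10 were in cluster 2, led by the mitosis genes Nusap1 and Ccnb1, with 9.3% of all UMIs. The 7 in cluster 8 were near its 21% share of all UMIs.

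**Figure D5:**
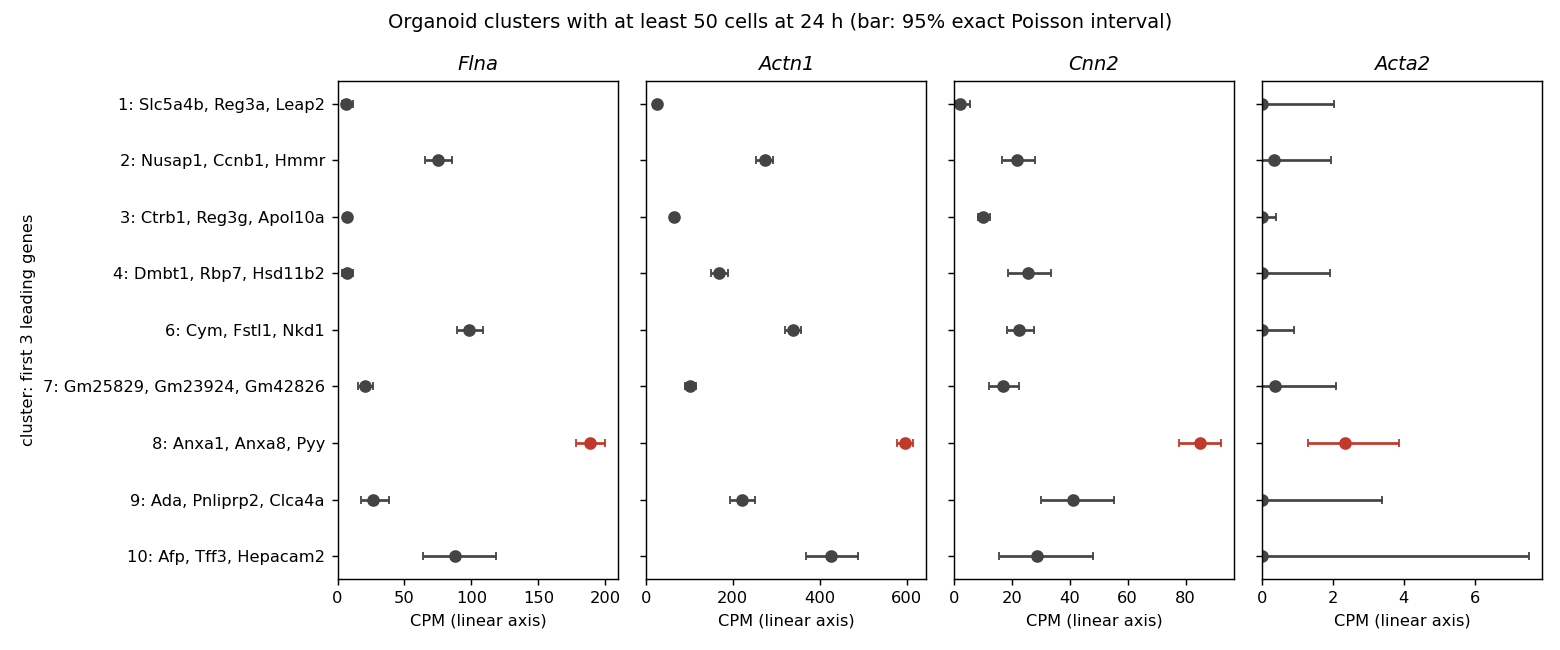
CPM of Flna, Actn1, Cnn2 and Acta2 (linear axes) in each organoid cluster with at least 50 cells at 24 h, named by its first 3 leading genes, with 95% exact Poisson intervals. Cluster 8, in red, has the highest level of each, with 189 CPM of Flna and 596 of Actn1, and its Acta2 interval overlaps those of several others.

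The change with time was not confined to that cluster. In the 6 other clusters with at least 50 cells at both 0 and 24 h, Tagln2 was higher at 24 h in 6 of 6 (1.28 to 2.57 times, median 1.61) and Tpm1 in 6 of 6 (1.05 to 1.36 times). Cnn2 (0.409 to 3.20 times), Actn1 (0.768 to 1.55 times) and Flna (from 0.780 times, with 0 UMIs in 1 cluster at 0 h) were higher in 5 of 6, and Tpm4 (0.636 to 1.86 times) in 4 of 6. In the crypts no cluster had at least 50 cells both with and without irradiation, so no such comparison could be made. There 1 cluster, led by Ly6d, Sprr1a, Anxa8, Slc4a11, Il1rn and Clu, held 32.3 and 45.2% of the cells of the irradiated libraries and 0 cells of the non-irradiated one. It held 57 of 66 and 52 of 67 Tpm2 UMIs, 86.4 and 77.6%, with 29.6 and 48.0% of all UMIs. For Flna its shares were 42.7 and 69.2%, and for Tagln2 33.9 and 54.1%. Genes of the Clu-positive list led both this cluster and organoid cluster 8. At 24 h organoid cluster 8 held 2 of only 7 Tpm2 UMIs of its library, too few to compare the 2 clusters.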

How the data were processed

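The genes and lists were chosen with earlier results of these data known. Bulk RNA-seq FPKM were deposited by the authors in 3 tables, each normalized on its own. Low values gave no constant step from which reads could be recovered, so depth is unknown and no interval is given. TopHat2 2.1.0 and Cuffnorm/Cuffdiff 2.2.1 appear in the submitters' processing notes without a stated role, as do STAR 2.7.10a and the builds mm9 and GRCm39. The deposited single-cell values are expected counts, with UMIs shared between genes as fractions (8.67 to 22.0% of a library), which were summed unrounded. The 3 tables had 0 unmapped columns.

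FPKM were tested as log2(FPKM + 1) with limma 3.58.1 in R 4.3.3 (trend, robust, two-sided) for genes averaging 1 FPKM or more, per condition, with interaction terms over 12 libraries. Replicate numbers were not used as pairs. The fits were tested on simulated data. Cells had at least 500 UMIs, 250 genes and at most 20% mitochondrial UMIs. Barcodes called doublets (0.286 to 1.56%) were kept. Median UMIs per cell were 6709 to 14399. Clusters came from scanpy 1.11.5 and leidenalg 0.10.2 (2000 variable genes, 30 components, 15 neighbours, resolution 0.6). Named genes were all 10, the 3 most alike by r, and the 3 largest called rises and falls of the 36 actomyosin genes per condition; some genes that this rule names are not reported here. Myl12a, Myl12b, Mylk at D7 and Myocd were named beside Myl9 after their values were seen. Alternatives covered pseudocount, filter, scaling, shared fit, replicate block, left-out libraries, cell filters and fractional UMIs. Chromatin accessibility files were not used here.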

Additional observations from a re-analysis of the deposited data

Results flagged for a closer look

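In the fits over all genes, the TGFB1 changes of 8 of 9 genes passed the threshold for a difference between irradiated and non-irradiated organoids on day 7. Among all 11411 genes fitted, 53.1% did. For a difference between day 11 and day 7 after irradiation, 6 of 9 genes passed it, near the 64.5% of all 11456 genes fitted. The actin contractility genes were selected on their TGFB1 changes in these libraries, so these values are a description and no independent test. Tagln and Tpm2 passed the filter on low values only through 1 TGFB1 group, which fixed the sign of their difference for irradiation. All values are differences of log2 changes, with TGFB1 against vehicle in 3 against 3 libraries in each condition. For irradiation, 7 were positive, namely Myl9 1.78, Cnn2 0.82, Tagln 0.69, Flna 0.59, Tpm1 0.45, Tpm4 0.23 and Tagln2 0.20, and Tpm2 was negative at −1.08. For day, all 6 were negative, with Myl9 at −4.47, Tpm1 −0.69, Tagln2 −0.47, Actn1 −0.46, Cnn2 −0.44 and Tpm4 −0.40. Most of these 6 calls were lost with quantile normalization. Among all genes fitted, 25.3% were called positive and 27.8% negative for irradiation, and 31.5% and 33.0% for day. Both sets share the D7 IR libraries, so a value of those libraries enters both with opposite sign. For Myl9 the vehicle mean of those libraries was 3.75 FPKM, against 67.8 and 75.2 in the other conditions.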

How the results depend on the processing

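Of 792 alternative values from the bulk libraries, 757 were labelled the same as the main ones. For 602 of these, which were log2 changes, this meant the same direction and the same side of the threshold. The other 155 were counts of called genes, for which it meant a count within 1.5-fold of the main one. Apart from Myl9, 7, 8 and 8 genes passed the filter at D7 non-IR, D7 IR and D11 IR. Their TGFB1 changes kept direction and side of the threshold in 84 of 84, 96 of 96 and 93 of 93 values. Genes under the filter in a condition are not covered, and a gene that fell under it in an alternative run has no value there. The number of genes called lower at D7 IR, which was Myl9 alone, went from 1 to 0 with no filter on low values, and ranged from 0 to 1 when single libraries were left out. The number with a more negative change after irradiation went from 1 to 0 at a pseudocount of 0.1, and the number with a more negative change on day 11 from 6 to 2 with quantile normalization. The day difference of Acta2 changed sign at a pseudocount of 0.1 (0.032). That of Tagln, 0.005, changed sign with median-ratio scaling (−0.0033) and ranged from −0.10 to 0.10 when single libraries were left out, below 0 without D11 IR TGFB1 replicate 3, D11 IR vehicle replicate 1, D7 IR TGFB1 replicate 1 or 2 or D7 IR vehicle replicate 1. The causes were not tested. A replicate block changed no call. Same-numbered libraries had deviations correlated at −0.086 to 0.213. These values do not settle whether the libraries were paired, and the numbers were not used as pairs. With the block 7 genes were called higher at D7 non-IR and 8 at D7 IR and D11 IR. In the single-cell libraries 38 of 504 alternative values moved beyond their interval, all of them when only whole-number entries were kept, and no count of genes past 1.5-fold changed. With 0 to 32 UMIs per organoid library or crypt library, Acta2, Tagln and Myl9 allow no finer comparison. Alternatives on chromatin peaks were not run, because the peak lists could not be matched to an annotation of their build.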
